A study of Xenopus laevis with 12 samples.

Results

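Between the early and the late gastrula, 119 of the 15491 probe sets on the array came on in uninjected embryonic ectoderm of the frog Xenopus laevis. These probe sets carry 110 gene symbols. Each had its lowest uninjected stage 12 value above its highest uninjected stage 10.5 value, and a group mean higher by 2 or more on a log2(intensity + 16) scale that was quantile normalised over 12 arrays. Coming on means this rise and not absence before it. In uninjected explants at stage 10.5, 22 members had a mean below 5.21, the 25th percentile of all values. Others were well above the median of all values, 6.56, such as gnb3.L at 8.45. Of 233 probe sets with such a rise, 130 had 1 gene symbol and 103 had none. A further 11 were left out because their symbols began with krt, dlx, gata, msx, itln, agr2, rpl or rps. The members were chosen by these uninjected values (1.3% of the 9145 probe sets that could be chosen), so the uninjected rise is described with no test. The question put to the members was which of them still come on in explants that received Geminin RNA.

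Explants of animal cap ectoderm from pigmented, in vitro fertilised embryos were compared in 4 groups of 3 arrays, namely injected explants at stage 12 and at stage 10.5, and uninjected explants at stage 12 and at stage 10.5. For the injected groups, 300 pg of an RNA that the labels call xGeminin∆coil went into the animal side of both cells of 2-cell embryos. In every group, 80 caps cut at stage 8 to 9 were pooled per sample, and the caps were cultured at 25 °C in 0.7x MMR (a saline) and collected when whole embryos of the same batch were at stage 10.5 or 12. No explants with a control RNA were analysed here, and the labels do not say whether the dose was given to each cell or shared between them. The experiment was done 3 times per stage, with separate injections, and the numbers of the experiments are used below to name arrays.

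Animal cap cells that receive no other signal form epidermis, under the control of bone morphogenetic proteins (BMPs). In the frog this epidermis is built from mucus-secreting goblet cells, multiciliated cells, ionocytes and small secretory cells, and its secretory cells need a large endoplasmic reticulum and a supply of sugar nucleotides for glycoproteins. Geminin binds the replication licensing factor Cdt1 and also acts with chromatin regulators in the choice between epidermal and neural fate. The injected form is named xGeminin∆coil, and whether it keeps these activities was not tested here.

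Before the results, 3 features of the arrays bear on them. Geminin itself (gmnn.L) had deposited intensities of 3200, 13800 and 13400 in injected stage 12 explants and of 116, 278 and 4580 in uninjected stage 12 explants. At stage 10.5 it had 5440, 10500 and 3450 in injected explants and 261, 233 and 375 in uninjected ones. The library labelled uninjected stage 12, experiment 3 thus held Geminin signal at the level of injected explants, which goes against its label. The other Geminin copy, gmnn.S, had 145, 513 and 510 in injected and 49.9, 261 and 250 in uninjected explants at stage 12. The injected array was the higher of each pair, but the groups overlapped and these intensities were not normalised. They do not settle whether that label is right. The mean over the members ran with the label, at 7.11, 7.03 and 7.31 in injected and 9.27, 8.77 and 8.66 in uninjected stage 12 explants, though these uninjected arrays helped choose the members. At stage 12 the arrays of experiments 2 and 3 were more like each other than like those of experiment 1, in both treatments. They correlated at 0.985 in injected and 0.99 in uninjected explants. Experiment 1 correlated with them at 0.943 and 0.941 in injected and at 0.915 and 0.916 in uninjected explants. At stage 10.5 the arrays of a group correlated at 0.946 to 0.964. For the uninjected stage 12 array of experiment 2, 1 label field names stage 10.5, and the other 2 fields, which name stage 12, were used. Summed normalised intensities of 7 of 8 listed ectoderm marker genes ran from 5310 to 6140 in injected and from 6630 to 6940 in uninjected explants at stage 12, and from 6560 to 7540 in injected and from 9320 to 11300 in uninjected explants at stage 10.5. At stage 12, the sums over 9 of 10 mesoderm genes were 301 to 428 in injected and 196 to 218 in uninjected explants, those over 5 of 6 endoderm genes 133 to 205 in injected and 249 to 269 in uninjected explants, and those over 5 of 6 neural genes 754 to 1250 in injected and 648 to 745 in uninjected explants. At stage 10.5 the mesoderm sums were 563 to 756 in injected and 384 to 705 in uninjected explants, the endoderm sums 217 to 407 in injected and 164 to 241 in uninjected explants, and the neural sums 2300 to 3350 in injected and 2430 to 3170 in uninjected explants. Of the probe sets behind these sums, 6 of 12 for mesoderm, 2 of 8 for endoderm, 1 of 11 for neural tissue and 1 of 8 for ectoderm (tp63.L) had means below 5.21, the 25th percentile of all values, in all 4 groups. The mesoderm means ran up to 8.36, in vegt.L, which had 7.11 in injected and 5.11 in uninjected explants at stage 12 and 8.36 in injected and 7.94 in uninjected explants at stage 10.5. The highest endoderm mean was 7.41, in a2m.S in uninjected explants at stage 12, where injected ones had 6.17. At that stage mixer.L was lower in injected explants too, at 4.99 beside 5.38. Hhex.L, at 4.83 beside 4.49, and 1 probe set of sox17b.1.S, at 5.44 beside 5.04, were higher. The lower endoderm sum at stage 12 thus does not stand for all endoderm genes. The ectoderm means ran up to 11.77, in epcam.S. At stage 12 epcam.S had 11.3 in injected and 10.92 in uninjected explants, and epcam.L 10.67 and 10.32. Grhl3.L, tfap2a.L, grhl1.L, cdh1.S and foxi1.L were lower in injected explants at that stage, foxi1.L at 5.73 beside 8.17. Among the neural probe sets at stage 12, sox3.S had 9.14 in injected and 7.84 in uninjected explants, and sox3.L 7.96 and 6.99. For zic1.S, 1 probe set had 6.28 in injected and 5.47 in uninjected explants, and the other 4.62 and 4.78. The sox2.L probe sets were lower in injected explants, at 5.7 beside 6.93 and 4.73 beside 5.92. All those of otx2 and ncam1 were lower too, so the higher neural sums do not stand for all neural genes. The part of these marker differences in the results below was not tested.

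In injected explants 78 of these probe sets still rose in the test given below, and the median difference was smaller than in uninjected explants. The group mean was higher at stage 12 than at stage 10.5 in 118 of the 119 probe sets, with a median difference of 1.39 and a range of -0.08 to 3.39. The median over all 11618 tested probe sets was 0.02. In uninjected explants the members' median difference was 2.48, with a range of 2.00 to 5.50 that the rule set from below, and the median over all tested probe sets was -0.04. As a share of its own uninjected difference, the injected difference had a median of 49.7%, was under 25% in 25 members and over 75% in 28. It was above the uninjected one in 5 members. The rule chose the members for a large uninjected difference and made no such choice in injected explants. That choice by itself lowers these shares and widens the gap between the medians, so both are a description and were not tested. In explants of pooled cells, fewer cells of a type and less RNA per cell cannot be told apart.

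The injected arrays had no part in the choice of members, so their stage difference was tested with limma. Each was paired by experiment with an uninjected array of its stage, however, and arrays of an experiment were correlated (0.631 as a random effect). Deviations shared within an experiment can thus carry part of the choice into the injected arrays. The test is not independent of the choice, and the size of this effect was not tested. Of 117 members above the filter on dim signals, 78 (66.7%) rose in injected explants at an adjusted p under 0.05, and 0 fell, whether the p was adjusted or not. Over all probe sets tested, 7.82% rose and 8.49% fell. At an unadjusted p under 0.05, 95 members rose, where 15.4% of all tested probe sets did. All 3 injected stage 12 arrays lay above all 3 injected stage 10.5 arrays in 97 members, among them 17 that did not pass, where 17.7% of all tested probe sets had this order. The count of 78 was 35 on the deposited scale, without quantile normalisation, and 52 without the injected stage 12 array of experiment 3. With the arrays of experiments 2 and 3 at stage 12, which were much alike, averaged, it was 54, and 362 of all tested probe sets rose. On the deposited scale the median of all tested probe sets lay at -0.20, and all 119 members lay above it. The split of all calls also moved with the scaling, from 909 up and 986 down to 130 up and 405 down on the deposited scale and 1526 up and 842 down after median centring, which put the median of all tested probe sets at 0.14.

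By the size of that rise the members fell into classes. In 28 probe sets of 27 genes, the injected arrays met the same rule as the uninjected ones, with groups that did not overlap and a difference of 2 or more. That is 23.5% of the members, against 0.405% of the 9145 probe sets that could have met it. Of these 28, 27 passed the test at adjusted p values of 0.000108 to 0.0124 (limma), the exception being hist2h3c, a histone H3 gene, at an adjusted p of 0.0807. Another 51 rose by less, by 0.71 to 1.95, at adjusted p values of 0.000862 to 0.0462. A further 38 were tested and did not pass, with differences of -0.08 to 1.97, standard errors within the range of 0.18 to 0.74 seen over all members, and adjusted p values from 0.059. Among those 38, 16 had an unadjusted p under 0.05. The last 2, epha8.L and LOC100127337, were too dim to be tested. A probe set that did not pass is not thereby shown to be flat.

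**Figure D1:**
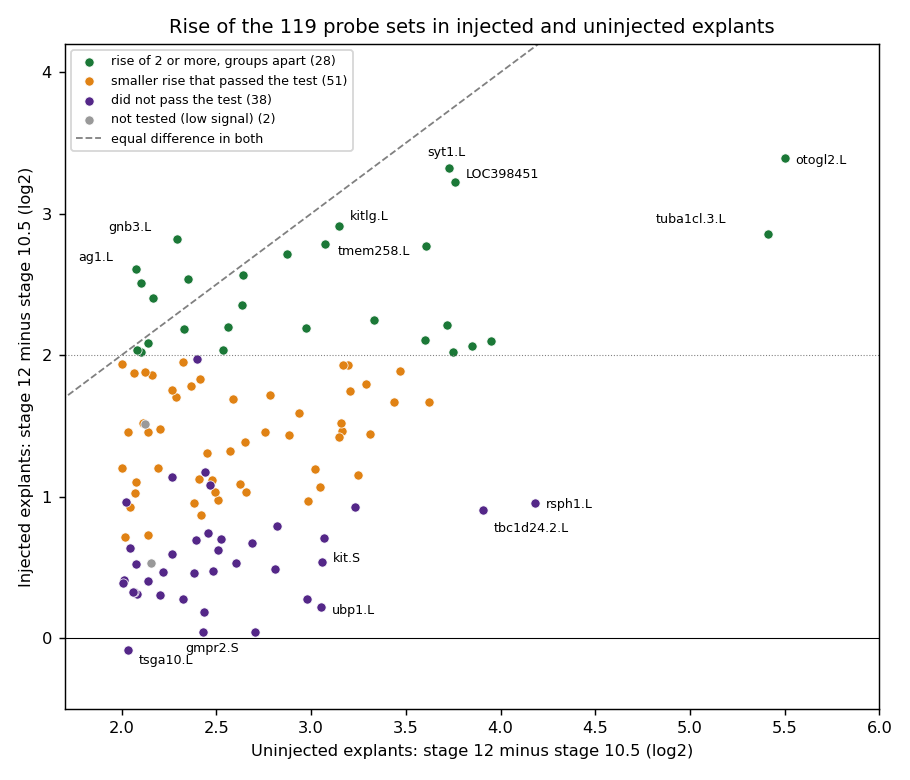
Each point is 1 of the 119 probe sets, with its stage 12 minus stage 10.5 difference in injected explants (vertical axis, log2) against the same difference in uninjected explants (horizontal axis, log2), coloured by class. Most points lie below the dashed line of equal difference, 28 lie at or above 2 with groups apart, and rsph1.L and tbc1d24.2.L lie far to the right with injected differences under 1.

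Among the RNAs with the full rise in injected explants, kitlg.L codes for the ligand of the receptor tyrosine kinase Kit. Its values were 7.72, 8.26 and 8.50 in injected explants at stage 12 and 5.23, 4.89 and 5.61 at stage 10.5. Uninjected explants had 10.55, 10.05 and 10.22 at stage 12 and 7.48, 7.19 and 6.70 at stage 10.5. Every injected array was thus below every uninjected array of its stage. The difference between the stages was 2.91 in injected explants (SE 0.29, adjusted p 0.000216, limma), beside 3.15 in uninjected ones. Syt1.L, whose protein is a calcium sensor for vesicle fusion, had 8.12, 7.51 and 8.28 at stage 12 and 4.77, 4.52 and 4.66 at stage 10.5 in injected explants. In uninjected explants it had 10.13, 9.44 and 9.44 at stage 12 and 6.51, 6.40 and 4.91 at stage 10.5. It too was lower on every injected array than on every uninjected array of the same stage, and it rose by 3.32 in injected explants (adjusted p 0.000425, limma).

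The largest uninjected difference, 5.50, was that of 1 probe set of otogl2.L, an otogelin-like gene of a family of secreted, mucin-related glycoproteins. In injected explants it read 8.40, 7.97 and 9.20 at stage 12 and 5.05, 5.34 and 5.0 at stage 10.5, a 10.5-fold rise. Uninjected explants read 11.24, 10.51 and 10.48 at stage 12 and 5.47, 5.41 and 4.85 at stage 10.5, a 45.3-fold difference. At stage 10.5 injected and uninjected arrays overlapped, and at stage 12 they lay apart. A second member probe set of otogl2.L did not pass in injected explants, at 0.93 (SE 0.54, adjusted p 0.276, limma), so the size of this rise rests on 1 probe set. One probe set of tuba1cl.3.L, an alpha-tubulin gene, rose by 2.86 in injected explants (SE 0.66, adjusted p 0.0124, limma), beside 5.41 in uninjected ones. Its injected arrays read 7.59, 7.56 and 8.35 at stage 12 and 4.51, 4.55 and 5.86 at stage 10.5, and its uninjected arrays 10.51, 11.08 and 10.80 at stage 12 and 4.60, 4.23 and 7.33 at stage 10.5. Experiment 3 was the highest array of both stage 10.5 groups. A second member probe set of tuba1cl.3.L rose by 2.54 in injected explants, beside 2.35 in uninjected ones. Another probe set of the gene, not a member, had 2.33 beside 1.60. The smaller rise of this RNA in injected explants thus rests on 1 probe set.

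In 4 of the 28, injected and uninjected arrays overlapped at stage 12. Tmem258.L, which codes for a subunit of the enzyme that adds sugar chains in the endoplasmic reticulum, read 9.48, 8.59 and 8.33 in injected and 9.89, 9.00 and 8.90 in uninjected explants at stage 12. The injected array was the lower in all 3 pairs, by a mean difference of -0.46 (SD 0.095, n = 3). It rose by 2.79 in injected explants (adjusted p 0.000431, limma), beside 3.07 in uninjected ones. The other 3 were polr2i.S, usp5.S and hist2h3c. Polr2i.S, a subunit gene of RNA polymerase II, read 8.22, 7.82 and 7.89 in injected and 8.10, 7.89 and 8.01 in uninjected explants at stage 12. Usp5.S, which codes for a deubiquitinating enzyme, rose by 2.02 in injected explants (adjusted p 0.00688, limma), beside 2.10 in uninjected ones. Other probe sets of these genes moved less, so these RNAs are uncertain. A second tmem258.L probe set rose by 0.59 in injected explants (adjusted p 0.0404, limma), 10 others of polr2i.S had differences of -0.63 to 0.85, and a second usp5.S probe set had 0.67. Other hist2h3c probe sets had 0.73 and 0.25. LOC398451, which the annotation does not describe further, rose by 3.22 in injected explants (SE 0.24, adjusted p 0.000108, limma), the lowest adjusted p of the members, beside 3.76 in uninjected ones. At stage 12 it read 8.15, 7.85 and 7.40 in injected and 8.83, 8.25 and 8.16 in uninjected explants, which did not overlap.

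**Figure D2:**
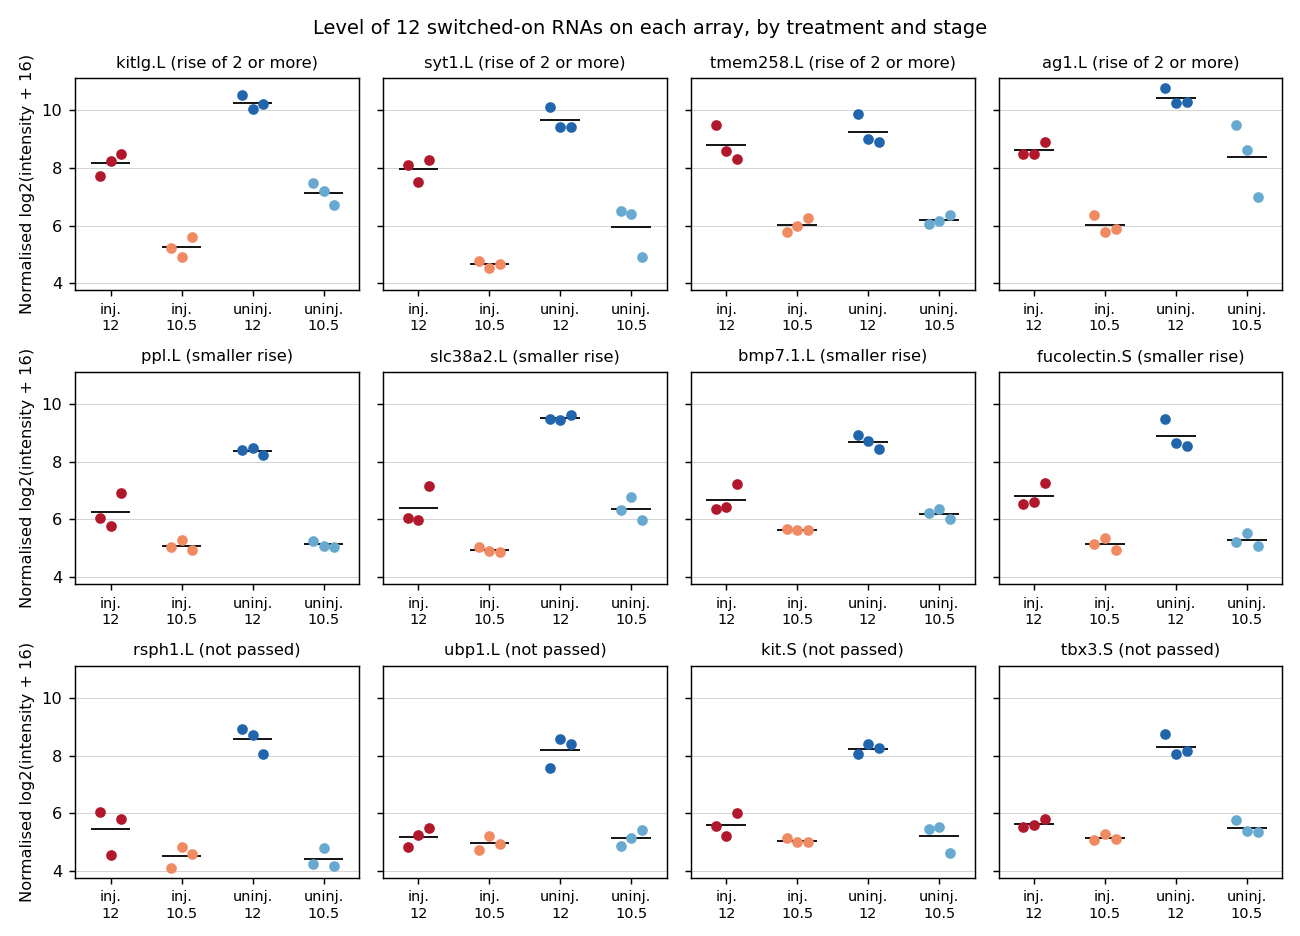
Each panel gives the normalised log2(intensity + 16) of 1 RNA on each of the 12 arrays (points), with group means (lines), in the order injected stage 12 and 10.5, then uninjected stage 12 and 10.5. Kitlg.L, syt1.L, tmem258.L and ag1.L rose by 2 or more in injected explants, ppl.L, slc38a2.L, bmp7.1.L and fucolectin.S rose by less, and rsph1.L, ubp1.L, kit.S and tbx3.S did not pass.

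Sorted by the role of the gene, a sorting made by hand after the values were seen, the RNAs of cilia and centrioles gave 13 probe sets. In injected explants 0 met the full rule, 4 rose by less and 9 did not pass, and the median difference was 0.69 in injected and 2.39 in uninjected explants. Over all members, 23.5% met the full rule and 66.7% of those tested rose. The member probe sets of the alpha-tubulin gene tuba1cl.3.L met the full rule, at 2.86 and 2.54, and were sorted under epithelial structure and actin. The count of 0 thus depends on the sorting. Rsph1.L, a radial spoke head gene of the motile cilium, read 6.03, 4.54 and 5.80 in injected explants at stage 12 and 4.09, 4.84 and 4.58 at stage 10.5. In uninjected explants it read 8.94, 8.73 and 8.07 at stage 12 and 4.22, 4.80 and 4.18 at stage 10.5. At stage 12 it was lower on every injected array than on every uninjected one, and the injected stages overlapped through experiment 2. Its injected difference was 0.96 (SE 0.38, adjusted p 0.109, limma), beside 4.18 in uninjected explants, an 18.2-fold difference.

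The other radial spoke gene, rsph9.L, had 2 member probe sets. One rose by 0.98 in injected explants (adjusted p 0.0118, limma), beside 2.51 in uninjected ones, and the other had 0.64 beside 2.04 and did not pass. Cfap52 codes for a protein of the ciliary doublet microtubules, and its long-chromosome copy, cfap52.L, rose by 1.12 in injected explants (adjusted p 0.0254, limma). Its short-chromosome copy, cfap52.S, had 0.71 and an adjusted p of 0.0892 (limma), beside 3.07 in uninjected explants. The difference between these copies was not tested. Nek8.S, a ciliary kinase gene, had the largest injected rise of the group, 1.39 (adjusted p 0.0115, limma), and cfap20.L rose by 0.71 (adjusted p 0.0462, limma), a call lost in 16 of 23 alternative settings, at adjusted p values up to 0.785. Other cfap20.L probe sets, not members, rose by 0.71 and 0.82 in injected explants (adjusted p 0.0329 and 0.0382, limma), beside 1.76 and 1.97.

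Foxn4.S, a forkhead factor of the multiciliated cell programme, read 6.28, 6.04 and 6.30 in injected and 8.20, 7.58 and 7.51 in uninjected explants at stage 12. At stage 10.5 it read 5.51, 5.92 and 5.12 in injected and 5.13, 5.90 and 5.08 in uninjected explants. The groups overlapped at stage 10.5 and were apart at stage 12, and the injected difference was 0.69 (SE 0.29, adjusted p 0.126, limma). Dnai1.L, an intermediate chain of the outer dynein arm, had an injected difference of 0.40 beside 2.14 in uninjected explants. Cetn4.L, a centrin gene, had 0.41 beside 2.01, poc1a.L, a centriole gene, had 0.33 beside 2.07, and cfap161.L had 0.53 beside 2.60. Tsga10.L was the only member with a lower injected mean at stage 12 than at stage 10.5, by -0.08 (SE 0.18, adjusted p 0.801, limma), beside 2.03 in uninjected explants.

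Transcription factors and RNA regulators followed, with a median difference of 0.67 in injected and 2.43 in uninjected explants over 9 probe sets. Of these, 3 met the full rule, namely polr2i.S, hist2h3c and mab21l3.S, a polymerase subunit gene, a histone gene and a mab-21 family gene. Hist2h3c did not pass the test (adjusted p 0.0807, limma), and other probe sets of polr2i.S had injected differences of -0.63 to 0.85. These 3 thus do not stand for transcription factors. Of the rest, 1 rose by less and 5 did not pass. The T-box factors were among the last. Tbx3.S read 5.52, 5.58 and 5.81 in injected explants at stage 12 and 5.08, 5.26 and 5.11 at stage 10.5, and 8.74, 8.05 and 8.15 in uninjected explants at stage 12 and 5.75, 5.39 and 5.36 at stage 10.5. The injected arrays thus stayed in or near the range of the uninjected stage 10.5 arrays. The injected difference was 0.49 for tbx3.S (SE 0.22, adjusted p 0.157, limma), 0.18 for tbx3.L and 0.67 for tbx2.L, beside 2.81, 2.44 and 2.69 in uninjected explants.

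Ubp1.L codes for a factor of the CP2 family known as a regulator of ionocytes in frog skin. It read 4.83, 5.24 and 5.47 in injected explants at stage 12 and 4.73, 5.19 and 4.94 at stage 10.5, against 7.57, 8.58 and 8.41 in uninjected explants at stage 12 and 4.86, 5.15 and 5.40 at stage 10.5. Only the uninjected stage 12 arrays were high, and the injected difference was 0.22 (SE 0.29, adjusted p 0.65, limma), beside 3.05 in uninjected explants. Zfp36.L, which codes for an RNA-binding protein of messenger RNA decay, rose by 1.94 in injected explants (adjusted p 0.0139, limma), beside 2.00. Mab21l3.S, a mab-21 family gene, rose by 2.35 (adjusted p 0.000816, limma), beside 2.64, and was lower on every injected array than on every uninjected array of the same stage.

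Receptors, ligands and signalling genes gave 15 probe sets, of which 2 met the full rule, 7 rose by less, 5 did not pass and 1 was not tested. Their median difference was 1.1 in injected and 2.27 in uninjected explants. Kit.S, the receptor for the kitlg product, read 5.54, 5.19 and 5.99 in injected explants at stage 12 and 5.13, 4.99 and 4.99 at stage 10.5. Uninjected explants had 8.07, 8.40 and 8.27 at stage 12 and 5.44, 5.53 and 4.60 at stage 10.5. Its injected difference was 0.54 (SE 0.27, adjusted p 0.209, limma), beside 3.06 in uninjected explants, whereas its ligand gene kitlg.L rose by 2.91. The other kit.S probe sets were not members, at 0.12 and -0.17 in injected explants, beside 0.57 and 1.25 in uninjected ones, and kit.L had -0.10 in injected and 1.63 in uninjected explants.

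Bmp7.1.L, a BMP ligand gene, read 6.37, 6.42 and 7.22 in injected explants at stage 12 and 5.65, 5.62 and 5.63 at stage 10.5, against 8.92, 8.73 and 8.43 in uninjected explants at stage 12 and 6.21, 6.36 and 6.03 at stage 10.5. It rose by 1.03 in injected explants (SE 0.25, adjusted p 0.0149, limma), beside 2.49, and was lower on every injected array than on every uninjected array of its stage. Smad9.S, a Smad gene of the BMP pathway, had an injected difference of 0.39 (adjusted p 0.414, limma), beside 2.01. Fzd10.S, a Wnt receptor gene, had 2 member probe sets. One rose by 1.03 in injected explants (adjusted p 0.0339, limma), beside 2.07, and the other had 0.79 (adjusted p 0.0813, limma), beside 2.82.

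Fzd8.S, another Wnt receptor gene, had probe sets that differed in injected explants, so its class depends on the probe set. Its member probe set had 0.59 in injected explants (adjusted p 0.134, limma), beside 2.27 in uninjected ones. A second probe set rose by 1.73 in injected explants (adjusted p 0.000507, limma) and, at 1.98 in uninjected ones, lay just outside the rule. Vangl1.L, a planar cell polarity gene, rose by 1.75 (adjusted p 0.000862, limma), beside 2.27, and mdk.S, which codes for the growth factor midkine, by 1.48 (adjusted p 0.00833, limma), beside 2.20. Gnb3.L, a G protein beta subunit gene, rose by 2.82 (adjusted p 0.000665, limma), more than its uninjected difference of 2.29, and its other copy gnb3.S rose by 1.1 (adjusted p 0.0125, limma), beside 2.08. Angpt4.S, an angiopoietin gene, had the largest difference of the 38 that did not pass, 1.97 (SE 0.68, adjusted p 0.0667, limma), with injected values of 6.99, 9.39 and 9.91 at stage 12 and 7.85, 6.16 and 6.36 at stage 10.5. Experiment 1 was the lowest array at stage 12 and the highest at stage 10.5.

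Mucus, lectin and granule release genes, as sorted by hand, gave 13 probe sets. In injected explants 4 met the full rule, 7 rose by less and 2 did not pass, with a median difference of 1.67 in injected and 3.29 in uninjected explants. Ag1, of the anterior gradient family that marks the frog cement gland, gave 3 of them. Ag1.L read 8.49, 8.48 and 8.89 in injected explants at stage 12 and 6.35, 5.79 and 5.88 at stage 10.5, and 10.78, 10.26 and 10.31 in uninjected explants at stage 12 and 9.51, 8.62 and 6.99 at stage 10.5. It rose by 2.61 in injected explants (SE 0.48, adjusted p 0.0036, limma), more than its uninjected difference of 2.08. Its uninjected stage 10.5 arrays spread widely, with experiment 3 the lowest. The ag1.S probe sets rose by 2.77 and 1.59 in injected explants (adjusted p 0.000493 and 0.0389, limma), beside 3.61 and 2.94.

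Fucolectin.S, a gene for a fucose-binding lectin, read 6.55, 6.60 and 7.25 in injected explants at stage 12 and 5.14, 5.34 and 4.93 at stage 10.5, against 9.48, 8.66 and 8.55 in uninjected explants at stage 12 and 5.23, 5.52 and 5.07 at stage 10.5. The stage 10.5 groups overlapped, and at stage 12 every injected array lay between the uninjected stages. It rose by 1.67 (SE 0.29, adjusted p 0.00258, limma), beside 3.62. Fam3d.S, which codes for a small secreted protein, rose by 1.89 (adjusted p 0.00802, limma), beside 3.47. Rab3d.L, a small GTPase gene of secretory granules, rose by 1.79 (adjusted p 0.0116, limma), beside 3.29, and liph.L, a lipase gene, by 1.44 (adjusted p 0.044, limma), beside 3.31. The call for liph.L was lost in 12 of 22 alternative settings, at adjusted p values up to 0.138. Pnlip.L, another lipase gene, had 1.14 (adjusted p 0.059, limma), beside 2.27.

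Sugar nucleotide and glycosylation genes, as sorted by hand, gave 9 probe sets with a median difference of 0.70 in injected and 2.38 in uninjected explants. The sorting also counted ctbs.S, at 0.967 in injected explants, and glb1l2.S, at 0.315, among them. Here 1 met the full rule, 3 rose by less and 5 did not pass. Fut6.S, a fucosyltransferase gene, was the first, at 2.19 (adjusted p 0.00231, limma), beside 2.97. Gfpt2.L, which codes for the entry enzyme of hexosamine synthesis, rose by 1.88 (adjusted p 0.0199, limma), beside 2.12. Gmppb and gmppa code for the subunits of GDP-mannose pyrophosphorylase. Gmppb.L rose by 1.2 (adjusted p 0.0107, limma), beside 2.19, while gmppb.S had 0.47 (SE 0.49) and gmppa.L 0.46 (SE 0.29), beside 2.22 and 2.38, and did not pass. The differences between these genes were not tested. B4galt3.S, a galactosyltransferase gene, had 0.70 (adjusted p 0.0884, limma), beside 2.53.

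Genes of the endoplasmic reticulum and the early secretory pathway gave 7 probe sets, of which 1 met the full rule, 4 rose by less and 2 did not pass, with a median difference of 1.31 in injected and 2.38 in uninjected explants. Hspa5.L, the gene of the chaperone BiP, read 9.20, 9.29 and 9.60 in injected and 11.00, 10.82 and 10.80 in uninjected explants at stage 12, and 8.63, 8.26 and 8.34 in injected and 9.26, 7.90 and 8.31 in uninjected explants at stage 10.5. The groups were apart at stage 12 and overlapped at stage 10.5, and it rose by 0.95 in injected explants (adjusted p 0.0409, limma). Fkbp11.L, a prolyl isomerase gene of the secretory pathway, rose by 1.69 (adjusted p 0.00357, limma), beside 2.59, and selenom.L, a selenoprotein gene, by 1.31 (adjusted p 0.00294, limma), beside 2.45. Tmem41b.L had 0.30 (adjusted p 0.463, limma), beside 2.21, and was higher in injected than in uninjected explants at stage 10.5 by 0.53.

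Epithelial structure and actin genes gave 14 probe sets, of which 5 met the full rule, 7 rose by less and 2 did not pass, with a median difference of 1.81 in injected and 2.75 in uninjected explants. The member probe sets of the alpha-tubulin gene tuba1cl.3.L, at 2.86 and 2.54 in injected explants, beside 5.41 and 2.35 in uninjected ones, were among those that met the full rule. The hand sorting counted them here and not under cilia and centrioles. Ppl.L and evpl.L code for periplakin and envoplakin, plakins that link keratin filaments to the cell edge. Ppl.L read 6.04, 5.77 and 6.91 in injected explants at stage 12 and 5.05, 5.29 and 4.92 at stage 10.5, and 8.42, 8.47 and 8.24 in uninjected explants at stage 12 and 5.25, 5.08 and 5.05 at stage 10.5. The treatments overlapped at stage 10.5 and lay apart at stage 12. It rose by 1.15 in injected explants (SE 0.27, adjusted p 0.0127, limma), beside 3.25. Evpl.L rose by 1.46 (adjusted p 0.0144, limma), beside 2.04. A second ppl.L probe set had 0.22 in injected and 1.69 in uninjected explants.

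Villin-like actin-binding proteins are the products of vill.S and vill.L, which rose by 2.21 and 1.93 in injected explants (adjusted p 0.0011 and 0.0208, limma), beside 3.72 and 3.19. Ehd4.L, a membrane trafficking gene, rose by 2.25 (adjusted p 0.00161, limma), beside 3.33, and emp2.L, a tetraspan protein gene, by 2.72 (adjusted p 0.000414, limma), beside 2.87. Eps8l1.L, whose family binds actin, rose by 1.75 (adjusted p 0.002, limma), beside 3.21. Rab25.L, a small GTPase gene of apical recycling, had 0.96 (adjusted p 0.109, limma), and anxa2.S, a gene for an annexin, had 0.74 (adjusted p 0.15, limma).

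Lipid genes had the highest median difference in injected explants, 1.99, beside 2.55 in uninjected ones. Of 8 probe sets, 4 met the full rule, 3 rose by less and 1 did not pass. Degs3.L, of the family that makes ceramide and phytoceramide from dihydroceramide, read 7.96, 8.25 and 8.22 in injected explants at stage 12 and 5.57, 5.27 and 5.88 at stage 10.5, against 9.51, 9.45 and 9.40 in uninjected explants at stage 12 and 7.59, 6.48 and 6.38 at stage 10.5. It rose by 2.57 (SE 0.30, adjusted p 0.000425, limma), beside 2.64, with injected arrays below all uninjected arrays at both stages. Fa2h.L, which codes for the enzyme that hydroxylates sphingolipid fatty acids, rose by 2.02 (adjusted p 0.00229, limma), beside 3.75. Gdpd1.L, a glycerophosphodiesterase gene, rose by 2.06 (adjusted p 0.00941, limma), beside 3.85. The lipid transfer gene stard10.L had 2 member probe sets, which rose by 2.08 and 1.93 (adjusted p 0.00122 and 0.0016, limma), beside 2.14 and 3.17.

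Transport and metabolism gave 10 probe sets, of which 3 met the full rule, 5 rose by less and 2 did not pass, with a median difference of 1.44 in injected and 2.49 in uninjected explants. Slc38a2.L, a neutral amino acid transporter gene, read 6.06, 5.98 and 7.16 in injected explants at stage 12 and 5.04, 4.89 and 4.87 at stage 10.5, and 9.49, 9.44 and 9.63 in uninjected explants at stage 12 and 6.31, 6.78 and 5.97 at stage 10.5. Injected arrays were below uninjected ones at both stages, and it rose by 1.46 (SE 0.31, adjusted p 0.00774, limma), beside 3.17. Slc3a2.S, the heavy chain gene of amino acid exchangers, had 1.17 (adjusted p 0.0667, limma), beside 2.44. Atp1b2.L, a beta subunit gene of the sodium pump, rose by 2.51 (adjusted p 0.000709, limma), more than its uninjected difference of 2.10, and aldh1l1.L, a folate enzyme gene, by 2.18 (adjusted p 0.000916, limma), beside 2.33. Gmpr2.S, which codes for GMP reductase, had 0.04 (SE 0.32, adjusted p 0.942, limma), beside 2.43.

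**Figure D3:**
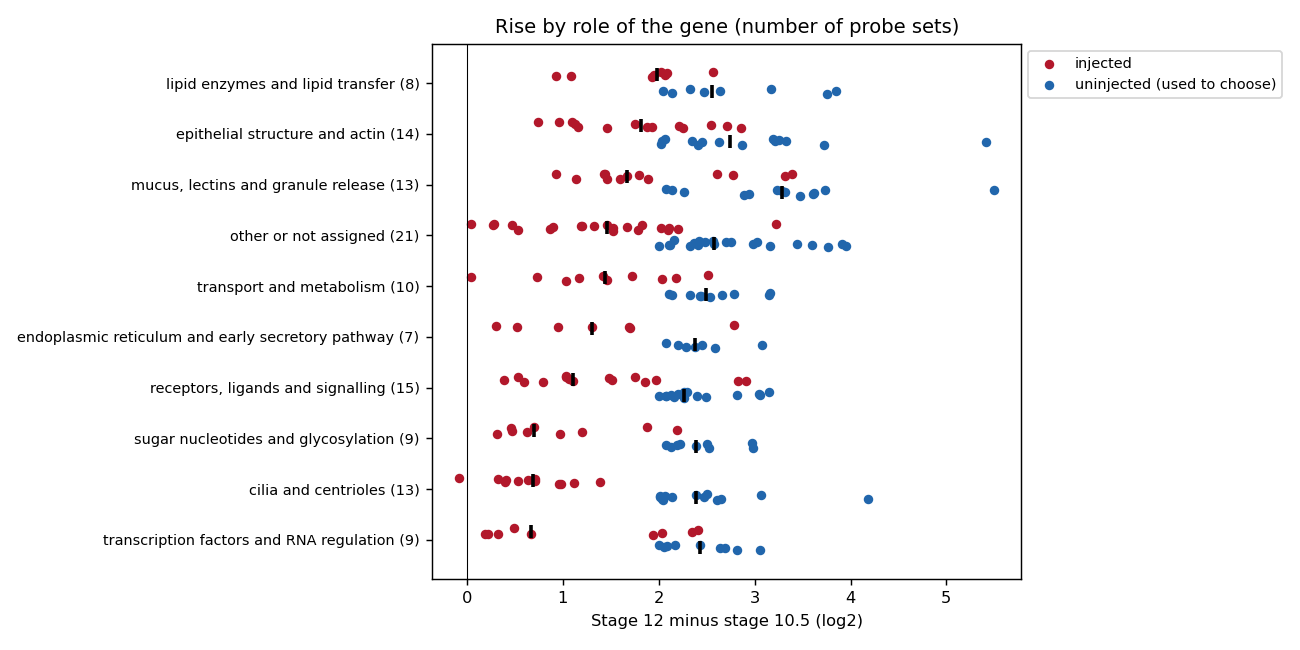
For each role, points give the stage 12 minus stage 10.5 difference (log2) of every probe set in injected (upper row, red) and uninjected explants (lower row, blue), with medians as black bars. Injected medians run from 1.99 for lipid genes to 0.69 for cilia and 0.67 for transcription factors and RNA regulation. Uninjected medians, which the rule held at 2 or more, run from 2.27 to 3.29.

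The remaining 21 probe sets had no clear role or no shared one, and 5 of them met the full rule, 10 rose by less, 5 did not pass and 1 was not tested. Their median difference was 1.46 in injected and 2.57 in uninjected explants. Tbc1d24.2.L, whose family holds regulators of Rab GTPases, read 5.44, 5.83 and 6.63 in injected explants at stage 12 and 4.82, 4.79 and 5.59 at stage 10.5, against 8.84, 9.37 and 9.42 in uninjected explants at stage 12 and 5.25, 5.30 and 5.35 at stage 10.5. Its injected stages overlapped through experiment 3 at stage 10.5, and the difference was 0.90 (SE 0.32, adjusted p 0.0714, limma), beside 3.91. Tnni2.S, a troponin I gene of fast muscle, had 2 member probe sets. One rose by 1.67 in injected explants (adjusted p 0.00143, limma), beside 3.44, and the other had 0.28 (adjusted p 0.683, limma), beside 2.98. Nxpe2.L rose by 2.10 (adjusted p 0.00356, limma), beside 3.60, and LOC100158288 also by 2.10 (adjusted p 0.00504, limma), beside 3.95. Val.L rose by 1.52 (adjusted p 0.0394, limma), a call lost in 12 of 22 alternative settings, with the injected stage 12 array of experiment 1, at 7.30, far above the other arrays of its group, at 4.89 and 5.66.

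**Figure D4:**
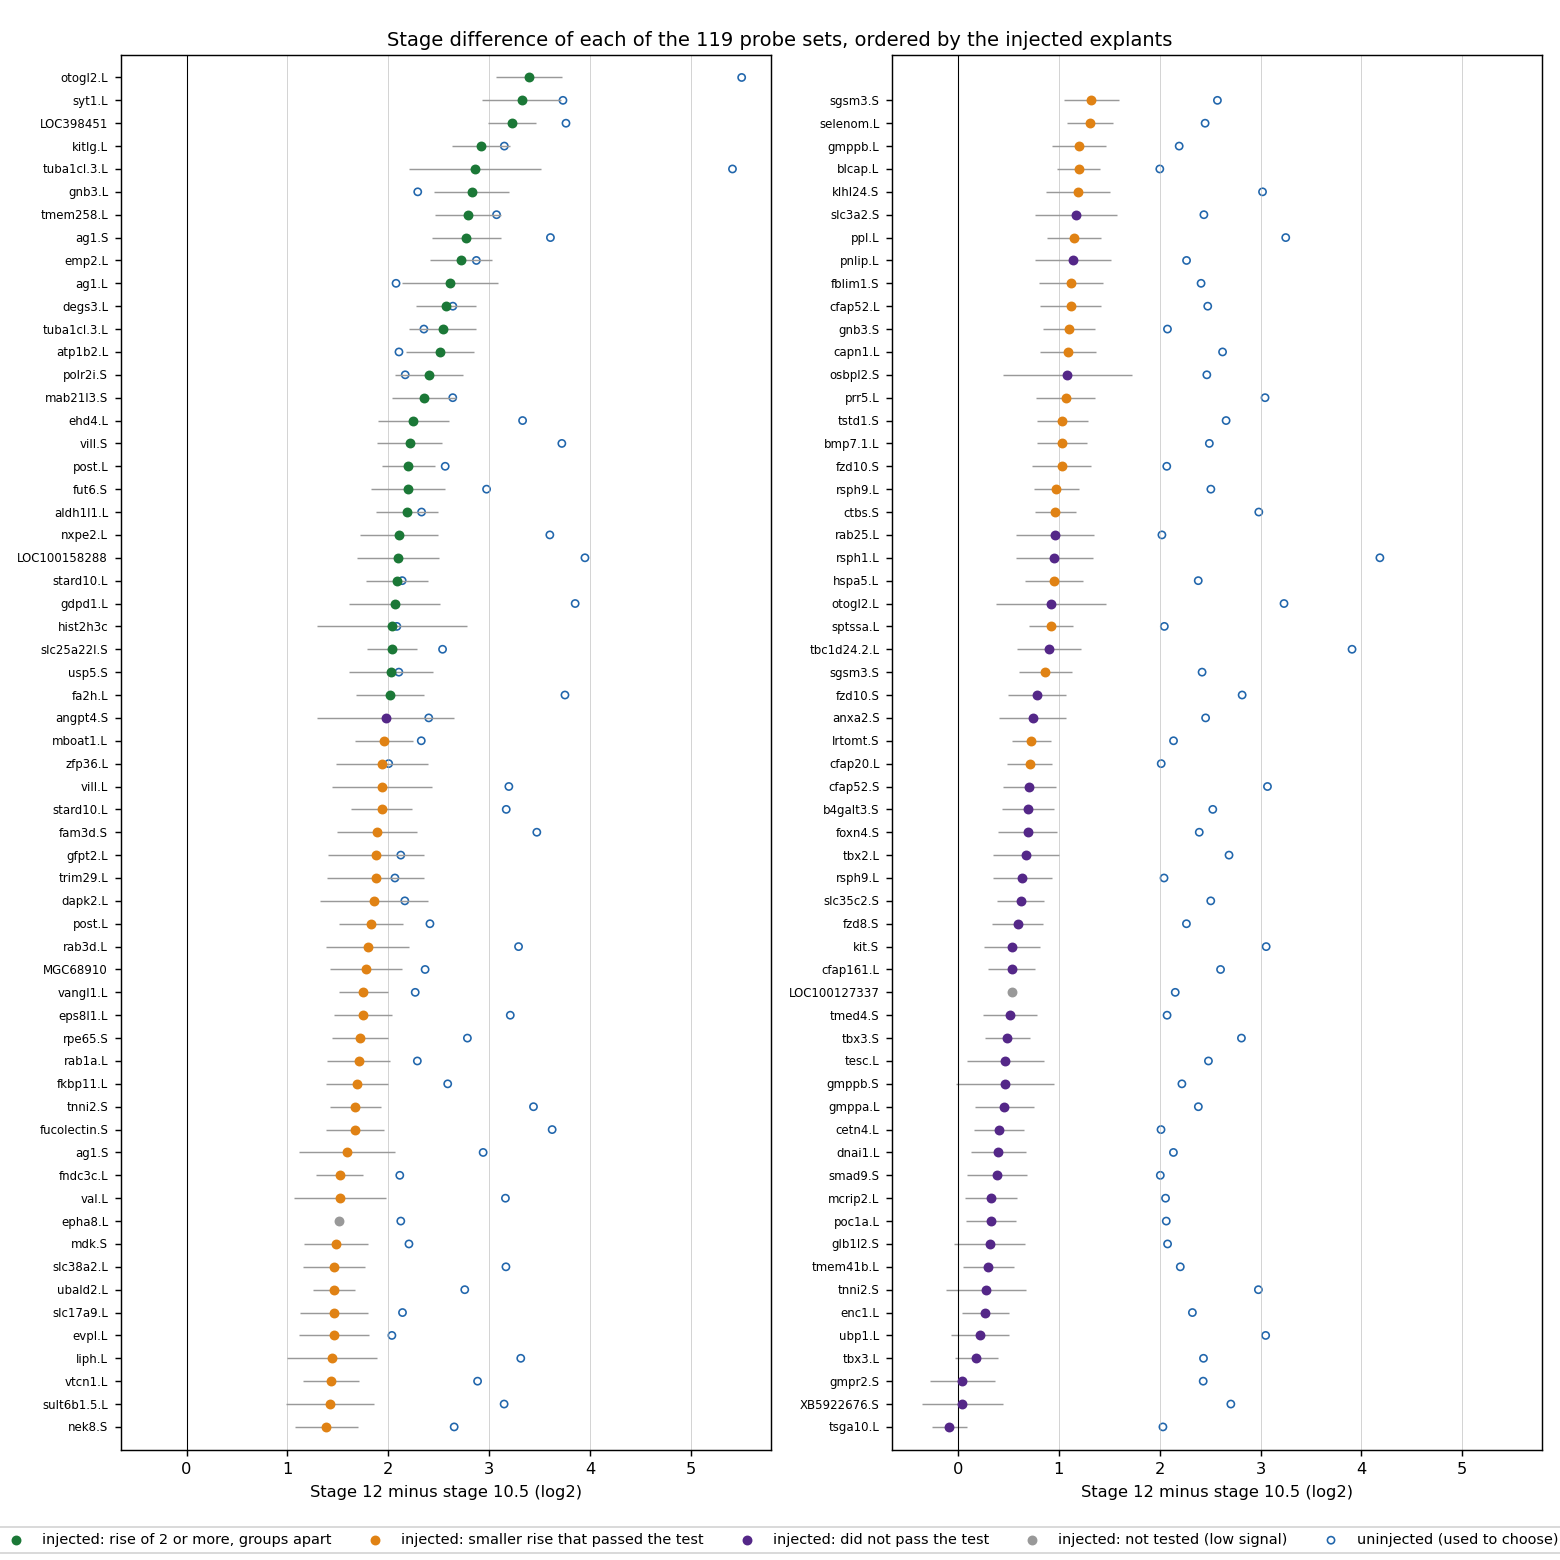
Every one of the 119 probe sets is listed by its stage 12 minus stage 10.5 difference in injected explants (filled points, log2, with the standard error of the limma fit where tested) beside the difference in uninjected explants (open blue circles). The injected differences run from 3.39 for otogl2.L to -0.08 for tsga10.L, and most open circles lie to the right of their filled points.

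The levels of the members were also set side by side between treatments. At stage 12 every injected array was below every uninjected array in 111 of the 119, where 16.7% of all tested probe sets were, and the injected array was the lower of its pair in all 3 pairs in 115, where 26.6% were. By class, the arrays lay wholly below in 24 of the 28, 49 of the 51 and 37 of the 38. The uninjected stage 12 arrays chose the members for being high, so nothing is read from these counts. The median difference, injected minus uninjected, was -1.76 for the members and 0.09 for all tested probe sets. The 8 members whose groups overlapped were hist2h3c, polr2i.S, usp5.S, epha8.L, tmem258.L, zfp36.L, vill.L and osbpl2.S. Set against the starting level, all 3 injected stage 12 arrays were above all 3 uninjected stage 10.5 arrays in 71 members, where 16.4% of all tested probe sets were, the groups overlapped in 48, and in 0 were they wholly below, where 15% were. The uninjected stage 10.5 arrays chose the members for being low, so nothing is read from these counts either.

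At stage 10.5 the differences were smaller and uneven. Injected arrays were wholly below uninjected ones in 34 members, where 8.29% of all tested probe sets were, and wholly above in 1, where 6.82% were. The median difference was -0.22 for the members and 0.05 for all tested probe sets. Of the 34, 15 were among the 28 with the full injected rise, 16 among the 51 with a smaller rise and 3 among the 38 that did not pass. The injected stage 10.5 arrays enter both this difference and the injected rise, and the rule used the uninjected ones, so these counts are a description. Members wholly lower at both stages numbered 33, where 5.24% of all tested probe sets were, and included ag1.L, gnb3.L, mab21l3.S, kitlg.L, emp2.L, trim29.L and gfpt2.L. Another 78 were wholly lower at stage 12 only, where 11.5% were, and the rule had favoured the stage 12 side of both counts. Ag1.L differed most at stage 10.5, by -2.37 on average over the pairs (SD 1.1, n = 3), and by -1.83 (SD 0.44, n = 3) at stage 12. Rsph1.L differed by 0.10 (SD 0.27, n = 3) at stage 10.5 and by -3.12 (SD 0.98, n = 3) at stage 12. Of the members, 46 had an injected stage 10.5 mean and 22 an uninjected one below 5.21, the 25th percentile of all values, where the scale compresses differences.

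**Figure D5:**
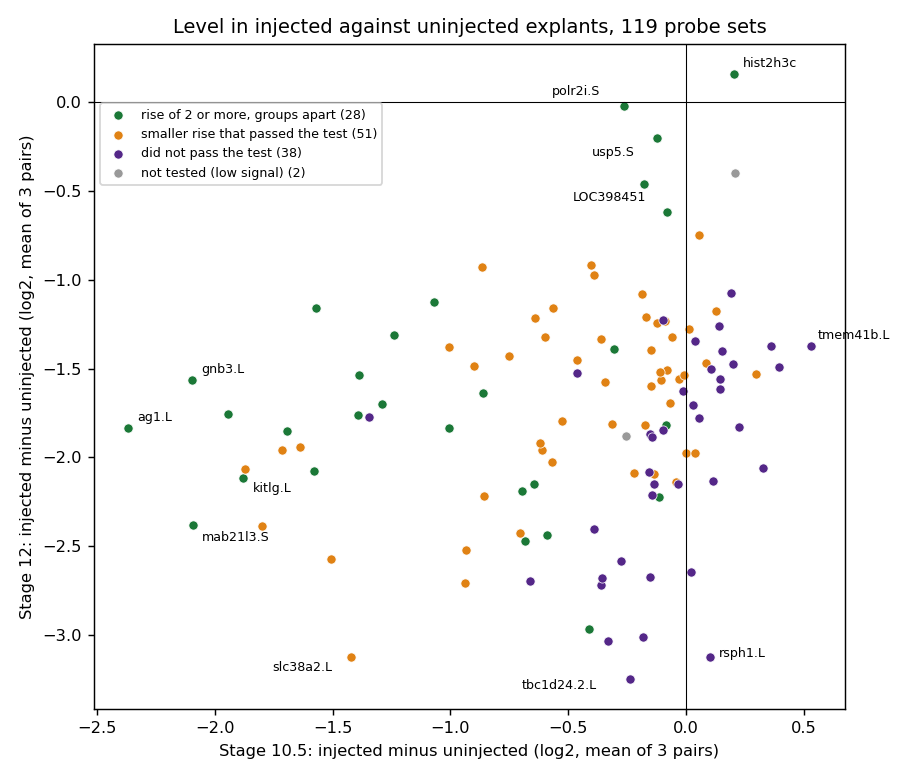
Each point is 1 probe set, with the mean injected minus uninjected difference over 3 pairs at stage 12 (vertical axis, log2) against that at stage 10.5 (horizontal axis, log2), coloured by class. Kitlg.L, ag1.L, gnb3.L and mab21l3.S lie far below 0 on both axes, whereas rsph1.L and tbc1d24.2.L lie near 0 at stage 10.5 and below -3 at stage 12.

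The rule was also turned round, to the injected arrays, and read in the uninjected ones. It found 37 probe sets, of which 28 were members, that is 23.5% of the members and 75.7% of the 37. In uninjected explants, 36 of the 37 rose at an adjusted p under 0.05 (limma), where 15.2% of all tested probe sets did. Their median difference was 2.23 in injected and 2.54 in uninjected explants. The uninjected arrays shared experiments with the injected arrays that chose the 37, so this reading is not independent of that choice either. The 9 that were not members had an uninjected median of 1.74, below the threshold of 2, beside 2.20 in the injected explants that chose them. Kat7.L, for one, had 1.49 in uninjected explants. The lowest uninjected difference was that of szl.L, which codes for Sizzled, a secreted feedback inhibitor of the BMP pathway that protects Chordin. Szl.L rose by 2.23 in injected explants (adjusted p 0.00532, limma), beside 0.99 in uninjected ones. Its mean was 9.0 in injected and 10.58 in uninjected explants at stage 12, and 6.76 in injected and 9.59 in uninjected explants at stage 10.5, so it was the lower in injected explants at both stages. Others were ckap4.S, at 2.31 beside 1.89, and herpud1.S, a gene of endoplasmic reticulum stress, at 2.16 beside 1.74.

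Xenopus laevis is allotetraploid, and the suffixes .L and .S mark gene copies on the long and the short chromosome of a pair, between which probes can cross-hybridise. For 29 members the other copy was on the array, through 28 probe sets, of which 13 were members and 15 were not. Of those 15, 6 still had an uninjected difference above 1. The copies of 1 gene did not always have like values. Kitlg.S, too dim to be tested, had 0.02 in injected and 1.36 in uninjected explants, hspa5.S had 0.21 and 1.57, and anxa2.L had 0.20 and 0.61. Ubald2.L had 1.46 in injected and 2.76 in uninjected explants, while ubald2.S had -0.18 and 1.00. Probe sets of the same copy could differ too. The member of rab1a.L had 1.71 in injected and 2.29 in uninjected explants, and its other probe sets had 0.26 to 0.71 and 0.58 to 0.83. The .L copy made up 63.2% of members with a suffix and 58.7% of the probe sets that could have been members.

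Wider gene lists, chosen with earlier results of these data known and read with 1 probe set per gene, set the members beside other genes. Some genes were taken in by the start of their symbol, so the lists also hold genes of other roles. Of 46 genes listed for multiciliated cells and the axoneme, 5 rose and 1 fell in injected explants and 19 rose and 2 fell in uninjected ones, with medians of 0.08 and 0.65. The 1 that fell in injected explants was armc1.S, by 1.27 (adjusted p 0.0175, limma), a gene taken in by the start of its symbol. It fell in uninjected explants too, with a difference of -1.54 (adjusted p 0.00323, limma). Over all 6146 tested genes, 493 rose and 597 fell in injected and 912 rose and 1137 fell in uninjected explants. Members are among the uninjected calls in that list. Among the list's other genes, ccno.L, a driver of centriole amplification, had 0.55 in injected explants (adjusted p 0.322, limma), beside 1.48 (adjusted p 0.00805, limma), and ift20.L, of intraflagellar transport, rose by 0.89 (adjusted p 0.033, limma), beside 1.76. Of 20 ionocyte and proton pump genes, 0 rose and 2 fell in injected explants and 4 rose and 3 fell in uninjected ones. The 2 were foxi1.L, the forkhead factor that specifies ionocytes, which fell by 1.79 (adjusted p 0.0105, limma), and ca12.L, a carbonic anhydrase gene, which fell by 1.24 (adjusted p 0.00756, limma). Foxi1.L also fell in uninjected explants, by 1.14 (adjusted p 0.0459, limma), while ca12.L had an uninjected difference of 0.70 (adjusted p 0.0558, limma). At an unadjusted p under 0.05, 1 ionocyte gene rose in injected explants.

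Of 37 genes listed for epidermal structure and junctions, 9 rose and 3 fell in injected and 13 rose and 9 fell in uninjected explants. Dscc1.L, a DNA replication gene taken in by the start of its symbol, was among the 9 that fell in uninjected explants. Upk1a.S, a uroplakin gene, and grhl1.L, a grainyhead factor of epidermal differentiation, were not members and rose in injected explants by 1.32 and 1.55 (adjusted p 0.00357 and 0.00341, limma), beside 0.92 and 1.74. Of 7 mucus and secretory genes, 2 rose in injected and 3 in uninjected explants. One of the 2 was creb3l2.L, a regulator of secretory capacity, which rose by 0.94 (adjusted p 0.0122, limma), beside 1.81. The other was xbp1.L, a factor of the unfolded protein response, which rose by 0.81 (adjusted p 0.0226, limma), while its uninjected difference was -0.25. Of 47 BMP and TGF-beta genes, 4 rose and 5 fell in injected and 11 rose and 9 fell in uninjected explants. Of 26 Wnt genes, 3 rose and 3 fell in injected and 3 rose and 8 fell in uninjected explants.

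Near the threshold, the members just inside were blcap.L, zfp36.L, smad9.S, cetn4.L and cfap20.L, with 1.2, 1.94, 0.39, 0.41 and 0.71 in injected and 2.002 to 2.016 in uninjected explants. Just outside were pdia4.L, cbx1.S, slc35a2.L, pcyt1b.S and ccdc63.L, with 0.87, 1.80, 0.81, 0.71 and 0.13 in injected and 1.984 to 1.999 in uninjected explants. Chosen again without the uninjected stage 12 array of experiment 3, which held Geminin signal, the members numbered 151, of which 117 were among the 119. Of these, 19.2% met the full rule in injected explants and 56.6% of those tested rose, with a median injected difference of 1.15. Chosen again without the uninjected stage 12 array of experiment 1, which was less like the others of its group, the members numbered 115, of which 94 were among the 119. Of these 115, 21.7% met the full rule, 70.9% of those tested rose and the median injected difference was 1.45.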

How the data were processed

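RNA of 12 samples was read on one-colour Affymetrix arrays, with 3 arrays in each of 4 groups. The authors deposited 1 intensity per probe set and array, on a linear scale, and the sources used here do not name the summary algorithm, background correction or scaling. Deposited array medians spanned 1.57 on the log2 scale, so log2(intensity + 16) was quantile normalised, and a fold change on this scale understates the change of dim RNAs. Precision is limited by the number of arrays.

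The lowest 25% of mean signal (3873 probe sets) were left out and 11618 were tested with limma 3.58.1 in R 4.3.3, with group means over all arrays, an intensity trend and Benjamini-Hochberg adjustment at a threshold of 0.05. The script was tested on simulated data. The filter used all arrays, so members could pass it through the uninjected stage 12 arrays. Of 119 members, 117 passed it.

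In the probe annotation, 9304 probe sets have 1 symbol, 195 have several and 5992 have none. RefSeq gene identifiers matched 9227 of the first and updated 2 of their symbols. Positions are not given, as the array has no named build, and promoter sequences were not analysed here. The members and gene lists were chosen with earlier results of these data known.

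Genes are named by rule: the 12 members of each class with the largest uninjected difference, up to 6 members of each gene list, the 5 highest and 5 lowest injected differences, the 5 members inside and 5 probe sets outside the threshold, and up to 10 whose copies or probe sets differed most. Other members, and the other genes of the lists and of the turned rule, are examples chosen after their values were seen. Alternatives covered scaling, pseudocount, filter, single arrays, array likeness, blocks, members chosen again and 1 probe set per gene. Same-numbered injected arrays of the stages deviated from their group means with correlations of 0.0971, 0.0288 and 0.201. Differently numbered ones had -0.21 to 0.114. These values do not settle whether the numbers pair the stages, and the main fit did not pair them.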

Additional observations from a re-analysis of the deposited data

How the results depend on the processing

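Counts depended on scaling and on the pseudocount. A larger pseudocount compresses the differences of dim RNAs, so fewer of them reach a fixed rise. The cause of the dependence on scaling was not tested. The 119 members numbered 235 with a pseudocount of 1, 57 with 64, 75 with the lowest 50% of signals left out, 298 for a rise of 1.5 or more and 58 for 2.5 or more. The 28 members with the full rise in injected explants numbered 53 with a pseudocount of 1, 6 with 64, and 74 if a rise of 1 sufficed. The 37 probe sets of the turned rule numbered 23 on the deposited scale, 102 with a pseudocount of 1 and 7 with 64. The 78 members that rose in injected explants numbered 35 on the deposited scale, 75 with no filter, 73 with the injected arrays alone, 69 with the experiment within a stage as a random effect (correlation 0.631) and 54 with stage 12 experiments 2 and 3 averaged. The 909 rising probe sets numbered 130 on the deposited scale, 1526 after median centring and 362 with those experiments averaged. The stage 10.5 median of injected minus uninjected moved to -0.41 with a pseudocount of 1.

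Leaving out 1 array at a time gave 115 to 151 members, 22 to 32 with the full injected rise, 31 to 55 under the turned rule, 52 to 81 members that rose and 448 to 1165 rising probe sets in all, the lowest of the last pair without injected stage 12 replicate 3. That count of all rising probe sets was also 548 without injected stage 12 replicate 2, 583 without injected stage 10.5 replicate 2 and 591 without injected stage 10.5 replicate 3. With the experiment number as a replicate block, 82 members and 1380 probe sets rose. Whether the block is apt was not settled by the correlations of 0.0971, 0.0288 and 0.201.

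Of members tested, 21 rose under all 23 alternatives, 9 under all of the 22 that could be run for them, and 24 under none that could be run. The calls of sgsm3.S (1 probe set), val.L, cfap20.L, sult6b1.5.L and liph.L were lost in 12 to 16 of 22 or 23. Signs turned only in members that had not passed. On the deposited scale these were gmpr2.S (-0.049), tmem41b.L (-0.058), enc1.L (-0.052) and XB5922676.S (-0.055). With 1 array left out, gmpr2.S ranged over -0.282 to 0.298, XB5922676.S over -0.16 to 0.257 and 1 probe set of tnni2.S over -0.153 to 0.687. The 2 sets of members chosen again, and the count with 1 probe set per gene (27 with the full rise and 71 that rose), were added after seeing the data. Dim signals limit the values near the floor of the array, where 46 members began in injected explants.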
